A study of Mus musculus with 6 samples.

Results

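The core circadian clock loop was followed in the cerebellum of transgenic daDREAM mice and of wild-type mice, through 9 genes: Arntl, Clock and Npas2, which encode its activators, and Per1, Per2, Per3, Cry1, Cry2 and Ciart, which encode its repressors. A probe set, the group of probes on the array that reads 1 transcript, was taken as a member when the platform annotation gave it exactly 1 gene symbol and that symbol was 1 of the 9. The rule found 21 probe sets for 9 of the 18193 genes on the array that have a probe set with 1 symbol, out of 45037 probe sets tested. The groups are 3 arrays of daDREAM cerebellum, labelled transgenic, and 3 arrays of wild-type cerebellum, on Affymetrix mouse genome arrays. The 3 arrays of a genotype are independent biological replicates per the series' design text. The transgene encodes daDREAM, a mutant of DREAM (the product of Kcnip3, which binds DNA and represses genes until calcium releases it) that represses irrespective of calcium. The sources used here do not give the promoter that drives the transgene, the strain, age and sex of the mice or the hour at which the tissue was taken, so hour and genotype cannot be told apart in these arrays.

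The clock loop is a transcriptional feedback circuit that runs with a period of about a day in nearly all mouse tissues. A dimer of BMAL1, the product of Arntl, with CLOCK or its paralog NPAS2 binds E-boxes and switches on the Per, Cry and Ciart genes. The PER and CRY proteins and CIART, also called CHRONO, then repress that dimer and with it their own transcription. Arntl in turn is driven by ROR factors and repressed by the REV-ERB factors, which bind the same element, so that in cycling tissues Arntl mRNA peaks when Per mRNA is low. The cerebellum holds such a clock, one usually found to be weaker than that of the suprachiasmatic nucleus, the master clock of the hypothalamus.

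All values are log2 expression values, in which 1 unit is a 2-fold change, and differences are daDREAM minus wild type. They were tested with limma over all 45037 probe sets, with Benjamini-Hochberg adjustment and a threshold of 0.05. The file carries no detection call, so a probe set with a mean under 6 is called dim here and its differences may be compressed. The dissection was checked on marker genes: the 4 measured Purkinje cell markers had means of 10.37 to 12.44 and the 5 granule cell markers means of 6.79 to 12.17. Markers of the pineal gland, a strongly rhythmic neighbour of the cerebellum, were dim in all 6 arrays, with means of 3.49 and 5.24, as were the 2 measured forebrain markers at 2.83 and 5.19. The arrays were not alike in their spread. The interquartile range of the log2 values over all probe sets was 3.49, 3.15 and 2.97 in daDREAM replicates 1, 2 and 3, against 3.27, 3.38 and 3.10 in wild-type replicates 1, 2 and 3. The mean of the 18 hybridization controls, RNA added in fixed amounts, was 9.47, 10.14 and 10.47 in daDREAM, against 8.99, 8.99 and 9.48 in wild type (2-sided exact permutation p = 0.2, n = 3 each).

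The promoters of Ciart, Per1, Cry2, Cry1 and Arntl are shown. Their windows hold an E-box, an E-prime box or a ROR and REV-ERB element, the elements through which the loop is known to act. A Clock window that holds a ROR and REV-ERB element is not printed. The windows are those of RefSeq on GRCm38.p6, 250 bases before to 50 after the start of transcription, and were matched for 8 of the 9 genes, all but Per2. They are printed 5′ to 3′ on the strand of the gene, with motif letters in capitals. The motifs searched, on both strands, were the E-box CACGTG, the E-prime box with letters CACGTT, the element AGGTCA bound by ROR and REV-ERB factors, the D-box TTATGTAA and the cAMP response element, whose letters are TGACGTCA. Ciart lies on chr3:95882179-95882478, minus strand, Per1 on chr11:69098699-69098998, plus strand, Cry2 on chr2:92434020-92434319, minus strand, Cry1 on chr10:85185005-85185304, minus strand, and Arntl on chr7:113207261-113207560, plus strand.
Ciart: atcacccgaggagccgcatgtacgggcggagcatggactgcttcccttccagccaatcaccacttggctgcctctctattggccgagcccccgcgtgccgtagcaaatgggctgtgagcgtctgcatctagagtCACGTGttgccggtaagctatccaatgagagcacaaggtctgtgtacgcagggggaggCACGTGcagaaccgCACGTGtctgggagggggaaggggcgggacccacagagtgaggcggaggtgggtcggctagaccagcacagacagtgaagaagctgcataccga
Per1: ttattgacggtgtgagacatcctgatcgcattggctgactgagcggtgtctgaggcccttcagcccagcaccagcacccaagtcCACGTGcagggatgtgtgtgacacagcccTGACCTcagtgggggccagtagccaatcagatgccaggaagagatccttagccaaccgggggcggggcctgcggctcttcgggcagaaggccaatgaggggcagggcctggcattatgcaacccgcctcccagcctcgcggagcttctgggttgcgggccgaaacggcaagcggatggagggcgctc
Cry2: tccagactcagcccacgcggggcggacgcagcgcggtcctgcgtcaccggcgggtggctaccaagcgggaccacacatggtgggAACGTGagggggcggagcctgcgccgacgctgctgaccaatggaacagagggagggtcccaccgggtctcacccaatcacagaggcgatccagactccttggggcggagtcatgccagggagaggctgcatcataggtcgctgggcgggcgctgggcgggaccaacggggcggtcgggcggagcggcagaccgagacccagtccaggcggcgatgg
Cry1: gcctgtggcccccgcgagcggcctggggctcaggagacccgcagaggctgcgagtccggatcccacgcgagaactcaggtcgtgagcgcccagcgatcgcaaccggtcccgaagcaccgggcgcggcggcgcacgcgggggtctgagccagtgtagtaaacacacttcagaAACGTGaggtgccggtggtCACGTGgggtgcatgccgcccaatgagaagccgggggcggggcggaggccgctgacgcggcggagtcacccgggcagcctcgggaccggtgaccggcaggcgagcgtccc
Arntl: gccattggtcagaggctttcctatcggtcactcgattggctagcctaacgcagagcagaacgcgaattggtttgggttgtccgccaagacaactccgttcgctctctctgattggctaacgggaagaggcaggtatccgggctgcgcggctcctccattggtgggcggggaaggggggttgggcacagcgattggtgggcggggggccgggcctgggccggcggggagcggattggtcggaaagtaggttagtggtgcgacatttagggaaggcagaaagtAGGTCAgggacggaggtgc

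The Ciart window held 3 E-boxes, which begin 116, 58 and 44 bases before the start site. The upstream window of Per1 held 1 E-box 166 bases before the start and 1 element of the ROR and REV-ERB type at 137 bases, and a second Per1 window, downstream, held none of the motifs. In Cry1 an E-box lay 60 bases and an E-prime box 79 bases before the start, and in Cry2 an E-prime box lay 166 bases before it. The Arntl window held 1 ROR and REV-ERB element, 32 bases after the start, and the other Arntl window, which begins slightly upstream, ends before that site. Per3 held 2 D-boxes, 205 and 158 bases before the start. Of 3 Clock windows 1 held a ROR and REV-ERB element, and the Npas2 window held none of the motifs. Among all 32851 promoter windows of this length, 7.15% held an E-box, 4.68% an E-prime box, 16.3% the ROR and REV-ERB element, 0.938% a D-box and 1.79% the cAMP response element. These matches describe the letters only.

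No member of the loop passed the test between daDREAM and wild type. Of 21 probe sets 0 had a limma adjusted p under 0.05, as 0.0% of all 45037 did, and every member had an adjusted p of 0.998. At an unadjusted p under 0.05 there was 1 of 21, Ciart, against 1.81% of all probe sets. The arrays of the genotypes did not overlap at 2 of 21, higher in daDREAM for Ciart and lower for Arntl, against 6.01% of all. The number of arrays limits the precision, and the median 95% interval over all probe sets reached 0.347 to either side. The sizes were larger than usual for this array: the median absolute difference was 0.197 over the 21 probe sets and 0.10 over all. Likewise the SD over the 6 arrays had a median of 0.277 over the 12 members whose mean was at least 6, against 0.189 over the 17340 such probe sets of the array.

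**Figure D1:**
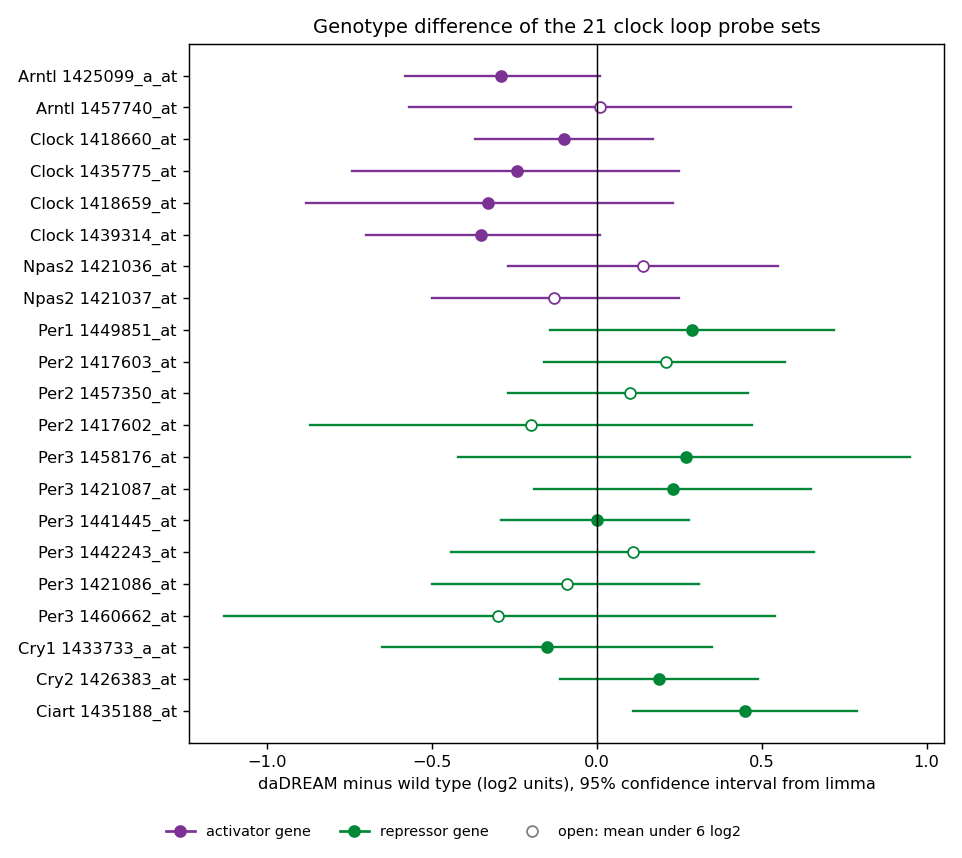
Genotype difference of each of the 21 clock loop probe sets: the x axis is daDREAM minus wild type in log2 units, points are the differences and lines their limma 95% confidence intervals (3 arrays a genotype). The interval of Ciart, 0.11 to 0.79, is the single one that does not include 0, and all 4 Clock probe sets and the brighter Arntl probe set lie left of 0.

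The bright activator probe sets were lower in daDREAM and most bright repressor probe sets higher, with none past the adjusted test and with intervals that included 0 for all but Ciart. All 5 activator probe sets at a mean of 6 or more, 1 of Arntl and 4 of Clock, had negative differences, with a median of -0.29. The 7 repressor probe sets with such a mean had a median difference of 0.23. Of them 5 had positive differences, those of Per1, Cry2 and Ciart and Per3 1458176_at and 1421087_at. The 2 others were Cry1 and Per3 1441445_at, a flat probe set that was at 0.01 after renewed quantile normalization. Over all 17340 probe sets at that level 41.0% were positive, with a median of -0.03. With the dim probe sets included, 2 of 8 activator probe sets were higher in daDREAM, with a median of -0.185. Of the repressor probe sets 8 of 13 were higher, with a median of 0.11, against 51.8% higher of all 45037. Probe sets of 1 gene share a transcript, so the 5 activator probe sets stand for 2 genes, and the Per3 probe sets among the 7 repressor probe sets stand for the same gene. These counts describe the members and were given no test.

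Arntl encodes BMAL1, the activator without which the loop stops. Its brighter probe set, 1425099_a_at, stood at 7.67, 7.58 and 7.32 in daDREAM, against 7.82, 7.79 and 7.82 in wild type. All 3 daDREAM arrays lay below all 3 wild-type arrays, and wild type varied little: the means were 7.52 ± 0.18 in daDREAM and 7.81 ± 0.02 in wild type (SD, n = 3 each). The difference was -0.29, or 0.82-fold (95% interval 0.67 to 1.01), with a limma unadjusted p of 0.0564 and an exact permutation p of 0.1, the smallest that 3 arrays against 3 allow. The lowest array, daDREAM replicate 3, also had the narrowest spread and the highest hybridization controls of the 6 arrays. Without it the difference was -0.18, smaller by more than 1.5 times. The dim probe set 1457740_at gave 4.83, 5.43 and 5.41 in daDREAM, against 4.90, 5.01 and 5.73 in wild type, with complete overlap and a difference of 0.01 (interval -0.57 to 0.59). The sign of that dim probe set turned to -0.02 after median centring and to -0.01 after renewed quantile normalization.

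Clock encodes the partner of BMAL1, a protein whose mRNA cycles weakly in most tissues, and it was measured by 4 probe sets that were all lower on average in daDREAM. The brightest, 1418660_at, stood at 8.92, 8.79 and 8.68 in daDREAM, against 8.89, 8.88 and 8.92 in wild type. The groups overlapped and differed by -0.10 (interval -0.37 to 0.17). Probe set 1439314_at stood at 6.30, 5.95 and 5.82 in daDREAM, against 6.38, 6.50 and 6.23 in wild type. There daDREAM replicate 1 lay inside the wild-type range and the other daDREAM arrays below it, for a difference of -0.35 (interval -0.70 to 0.01, limma unadjusted p = 0.0561). Probe set 1418659_at gave 7.71, 7.06 and 6.80 in daDREAM, against 7.61, 7.71 and 7.23 in wild type. Its difference was -0.33 (interval -0.88 to 0.23), and without daDREAM replicate 1, the daDREAM array that lay at the top of the wild-type range, it was -0.59, against -0.13 without daDREAM replicate 3. The fourth, 1435775_at, gave 8.57, 7.95 and 8.10 in daDREAM, against 8.50, 8.75 and 8.10 in wild type, a difference of -0.24 (interval -0.74 to 0.25) that was -0.09 without wild-type replicate 2 and -0.42 without daDREAM replicate 1 or wild-type replicate 3. In 3 of the 4 probe sets wild-type replicate 3 was the lowest wild-type array, and daDREAM replicate 1 was the highest daDREAM array in all 4.

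Npas2 encodes the paralog of CLOCK that can take its place, and both of its probe sets were dim. Probe set 1421036_at stood at 4.73, 5.03 and 5.39 in daDREAM, against 4.88, 4.81 and 5.04 in wild type, and 1421037_at at 4.53, 4.40 and 4.35 in daDREAM, against 4.69, 4.75 and 4.22 in wild type. The first differed by 0.14 (interval -0.27 to 0.55) and the second by -0.13 (interval -0.50 to 0.25), so the probe sets of this gene disagreed in sign and the groups overlapped in both.

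Per1 encodes a PER repressor that is also induced quickly by light, glucocorticoids and cAMP signalling, and was read by 1 probe set, 1449851_at. It stood at 8.58, 8.06 and 8.04 in daDREAM, against 8.08, 8.05 and 7.67 in wild type. Of the 6 arrays 4 lay within 8.04 to 8.08, so the means of 8.23 ± 0.31 in daDREAM and 7.93 ± 0.23 in wild type (SD, n = 3 each) were set apart by 1 array of each genotype, daDREAM replicate 1 and wild-type replicate 3. The difference was 0.29 (interval -0.14 to 0.72, limma unadjusted p = 0.155). It was 0.12 without daDREAM replicate 1 and 0.16 without wild-type replicate 3.

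Per2 encodes the PER protein whose loss shortens or abolishes rhythms in mice, and all 3 of its probe sets were dim. The brightest, 1417603_at, gave 5.61, 5.97 and 6.17 in daDREAM, against 5.80, 5.64 and 5.69 in wild type, a difference of 0.21 (interval -0.16 to 0.57) that was 0.08 without daDREAM replicate 3 and 0.36 without daDREAM replicate 1. Probe set 1457350_at gave 5.77, 5.63 and 6.10 in daDREAM, against 5.89, 5.75 and 5.57 in wild type, a difference of 0.10. Both had daDREAM replicate 3 at the top, but with overlapping groups. Probe set 1417602_at ranged wider, at 5.33, 4.88 and 4.64 in daDREAM, against 5.58, 5.36 and 4.50 in wild type, and differed by -0.20 (interval -0.87 to 0.47). There daDREAM replicate 3 was the lowest daDREAM array, so the probe sets of Per2 did not follow each other.

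Per3, the PER paralog that is dispensable for rhythms in mice, had 6 probe sets, of which 3 had positive and 3 negative differences. Probe sets 1458176_at and 1421087_at were nearly equally bright, with means over the 6 arrays of 7.32 and 7.31. Probe set 1458176_at gave 7.87, 7.76 and 6.73 in daDREAM, against 6.96, 7.09 and 7.51 in wild type, so that replicate 3 of daDREAM was the lowest array of all. Its difference was 0.27 (interval -0.42 to 0.95) and was 0.63 without that array. It was 0.06 without daDREAM replicate 1, 0.11 without daDREAM replicate 2 and 0.15 without wild-type replicate 1. Probe set 1421087_at gave 7.51, 7.32 and 7.45 in daDREAM, against 7.51, 7.28 and 6.81 in wild type, a difference of 0.23 (interval -0.19 to 0.65) that was 0.03 without wild-type replicate 3.

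The 4 other Per3 probe sets were dimmer. Probe set 1441445_at was flat, at 6.69, 6.51 and 6.48 in daDREAM, against 6.57, 6.68 and 6.44 in wild type, and 1442243_at gave 6.33, 5.75 and 5.38 in daDREAM, against 5.76, 5.92 and 5.45 in wild type. Probe set 1460662_at took 2 levels that crossed the genotypes: 4.07, 4.17 and 5.19 in daDREAM, against 5.08, 5.15 and 4.09 in wild type. The low arrays lay at 4.07 to 4.17 and the high arrays at 5.08 to 5.19. Probe set 1421086_at had the same arrays on its high side, at 5.09, 5.26 and 5.56 in daDREAM, against 5.44, 5.63 and 5.12 in wild type. Their genotype differences were -0.30 (interval -1.13 to 0.54) for 1460662_at and -0.09 (interval -0.50 to 0.31) for 1421086_at.

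Cry1 and Cry2 encode the cryptochromes, the strongest repressors of the BMAL1 dimer, and each was read by 1 probe set. Cry1, the later of them in the cycle of most tissues, stood at 6.78, 6.24 and 6.23 in daDREAM, against 6.81, 6.73 and 6.17 in wild type (1433733_a_at). The arrays fell into a high level of 6.73 to 6.81 and a low level of 6.17 to 6.24 that both genotypes shared, and the difference was -0.15 (interval -0.65 to 0.35), between -0.35 without wild-type replicate 3 and -0.03 without wild-type replicate 1. Cry2 (1426383_at) stood at 8.66, 8.58 and 8.34 in daDREAM, against 8.38, 8.39 and 8.23 in wild type. Of the daDREAM arrays 2 lay above all wild-type arrays and replicate 3 lay among them, for means of 8.53 ± 0.17 in daDREAM and 8.33 ± 0.09 in wild type (SD, n = 3 each). The difference of Cry2 was 0.19 (interval -0.11 to 0.49, limma unadjusted p = 0.176).

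Ciart encodes CHRONO, a repressor that binds BMAL1 and is itself driven through E-boxes, and its probe set 1435188_at gave the largest difference of the 21. It stood at 7.29, 7.04 and 6.85 in daDREAM, against 6.48, 6.73 and 6.62 in wild type. All 3 daDREAM arrays lay above all 3 wild-type arrays, with means of 7.06 ± 0.22 in daDREAM and 6.61 ± 0.13 in wild type (SD, n = 3 each). The difference was 0.45, or 1.37-fold (95% interval 1.08 to 1.73), with a limma unadjusted p of 0.0154, an adjusted p of 0.998 and an exact permutation p of 0.1, the smallest possible here. It stayed positive in each of the runs that left out 1 array, between 0.34 and 0.56, and its unadjusted p was 0.067 without wild-type replicate 1.

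Markers of the choroid plexus, the secretory epithelium at the roof of the ventricle beside the cerebellum, were, like Ciart, higher on average in daDREAM. All 7 markers listed had positive differences, with a mean of 0.54 and 0 passing the adjusted test, at levels that ran from a dim 5.34 to 12.69. Their mean level was 7.33, 7.48 and 7.10 in daDREAM, against 6.55, 6.87 and 6.88 in wild type. Over the 6 arrays Ciart ran with that mean (r = 0.90, exact p = 0.0194, 0.175 adjusted; rho = 0.89, exact p = 0.0333, 0.356 adjusted, where r is Pearson's and rho Spearman's, each with an exact permutation p, adjusted over 27 relations). Leaving out the 2 arrays whose marker mean lay farthest from the median gave r = 0.96. Both Ciart and the marker mean were higher in every daDREAM array than in every wild-type array, so these r also hold the genotype difference. The part of this tissue in the Ciart difference was not tested. All 5 microglia markers also had positive differences, with a mean of 0.19, and the 3 endothelial markers negative ones, with a mean of -0.21. In a piece of tissue, more cells of a type and more RNA per cell cannot be told apart.

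**Figure D2:**
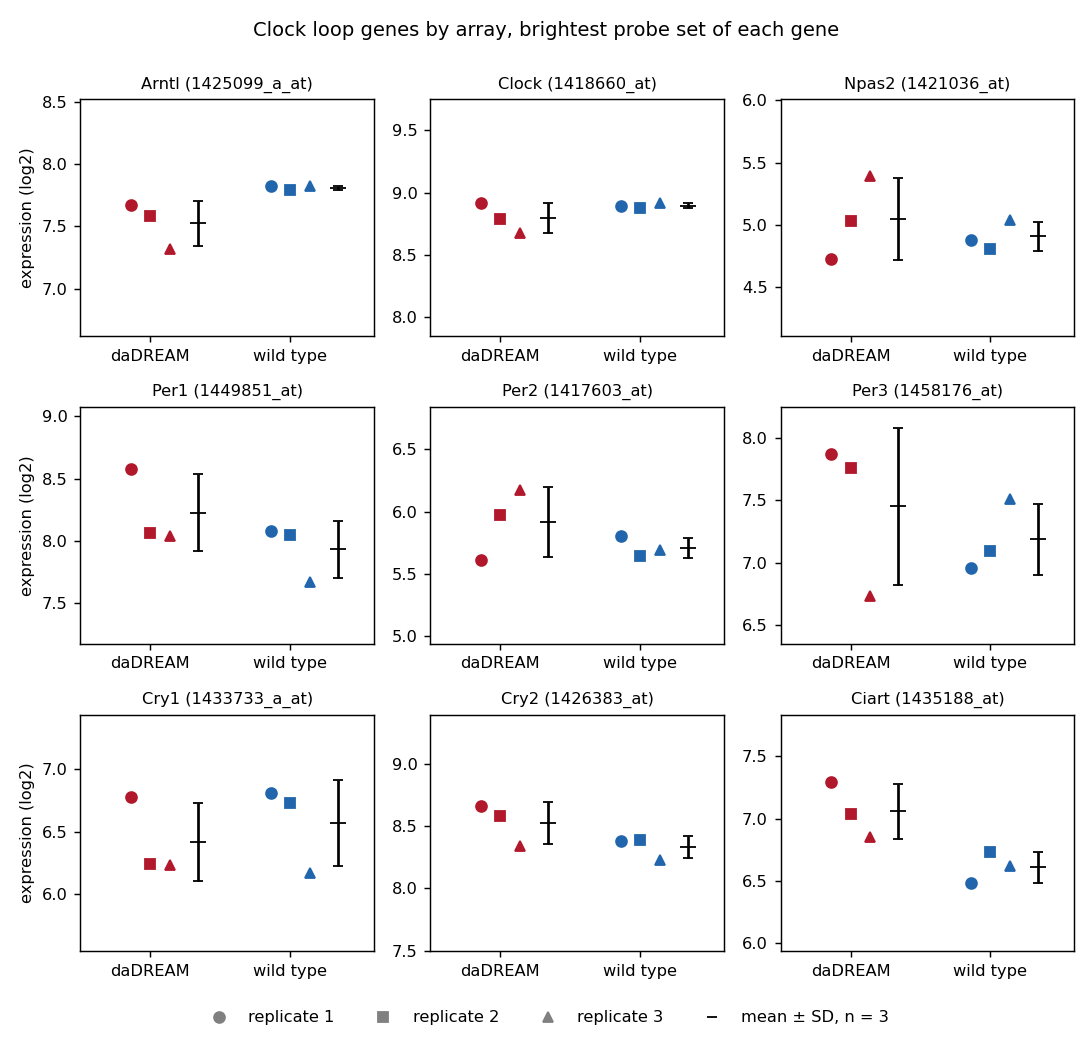
Expression of the 9 clock loop genes by array, brightest probe set of each: the y axes are log2 values with the same span in every panel, symbols mark replicates 1 to 3, and black bars give mean ± SD (n = 3). The genotypes do not overlap for Arntl, lower in daDREAM, and Ciart, higher in daDREAM, and overlap for the other 7 genes.

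How the genes of the loop moved together over the 6 arrays was described through Pearson's r and Spearman's rho, with each gene represented by its brightest probe set. The hour of collection is not given for any array, so these r cannot be read as phase. Of the 36 pairs 17 had a positive and 19 a negative Pearson r, 7 had an exact permutation p under 0.05 unadjusted, and 0 passed after adjustment over the 36 pairs (smallest adjusted p 0.2; by Spearman 1 unadjusted and 0 adjusted). The highest r was that of Arntl and Clock, the dimer partners (r = 0.92, exact p = 0.0222, 0.2 adjusted; rho = 0.72, exact p = 0.119, 0.478 adjusted). Without daDREAM replicates 2 and 3, the arrays farthest from the Arntl median, r was -0.44, so the relation rests on those arrays. For Arntl that run keeps 1 daDREAM array, at 7.67, and the 3 wild-type arrays, at 7.79 to 7.82. Its r therefore largely sets that 1 array against wild type. With the mean of all probe sets of each gene it was -0.32.

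The r between Arntl and the Per genes depended on the probe sets, the arrays kept and the scaling. Between the brightest probe sets and the mean of all probe sets, its sign changed for Per3 only. With Per2 it was opposed (r = -0.85, exact p = 0.0417, 0.229 adjusted; rho = -0.46, exact p = 0.372, 0.744 adjusted), yet r was 0.70 without daDREAM replicates 2 and 3. With Per1 it was near 0 (r = -0.17, exact p = 0.714, 0.927 adjusted; rho = -0.03, exact p = 0.983, 1.0 adjusted), and r was -0.89 without those arrays. With Per3 it was 0.25 (exact p = 0.658, 0.927 adjusted; rho = 0.03, exact p = 0.983, 1.0 adjusted), r was -0.78 without them, and -0.38 when Per3 was read by 1421087_at, a setting chosen after seeing the data. With the mean of all probe sets of each gene Arntl was opposed to all 3: r was -0.87 with Per1, -0.85 with Per2 and -0.90 with Per3 (exact p = 0.0542, 0.0528 and 0.0347, each 0.317 adjusted). In that setting the bright and the dim Arntl probe sets are averaged, with SDs over the 6 arrays of 0.19 and 0.36. Per1 has 1 probe set, so its change of r there came from adding the dim Arntl probe set. With the genotype means removed, r of the brightest probe sets was 0.55 with Per1, -0.85 with Per2 and 0.90 with Per3. After renewed quantile normalization of the brightest probe sets r was -0.85 with Per1, -0.50 with Per2 and 0.09 with Per3.

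Toward Ciart and Cry2 the sign of Arntl depended on whether the genotype means were kept. As measured, r was -0.42 with Ciart (exact p = 0.408, 0.639 adjusted; rho = -0.75, exact p = 0.106, 0.475 adjusted) and -0.99 without daDREAM replicates 2 and 3. With the genotype means removed it was 0.77. In daDREAM the arrays had the same order for Ciart and Arntl, while in wild type replicate 2 was the highest in Ciart and the lowest in Arntl. Arntl and Cry2 gave -0.16 as measured (exact p = 0.764, 0.927 adjusted; rho = -0.32, exact p = 0.544, 0.817 adjusted), -0.94 without those 2 arrays, and 0.85 with the genotype means removed. Arntl and Cry1 gave 0.47 (exact p = 0.369, 0.632 adjusted; rho = 0.23, exact p = 0.65, 0.846 adjusted), 0.45 with the genotype means removed and -0.41 without those arrays. Arntl and Npas2, both activators, gave -0.76 (exact p = 0.0917, 0.309 adjusted; rho = -0.26, exact p = 0.594, 0.846 adjusted) and 0.78 without those arrays. The Arntl runs without daDREAM replicates 2 and 3 hold 1 daDREAM array, so their r largely sets that array against wild type. With 3 arrays a genotype no r could be given within a genotype.

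The other pairs at the ends of the range mostly included 1 of the dim genes, Npas2 or Per2. Clock and Per2 had the lowest r of all (r = -0.95, exact p = 0.0139, 0.2 adjusted; rho = -0.78, exact p = 0.0778, 0.475 adjusted), which was -0.32 without daDREAM replicates 2 and 3 and 0.24 with the mean of all probe sets. Clock and Npas2 gave -0.86 (exact p = 0.0444, 0.229 adjusted; rho = -0.49, exact p = 0.328, 0.694 adjusted), 0.21 without those arrays, and 0.16 after renewed quantile normalization. Npas2 and Per2, both dim, ran together (r = 0.89, exact p = 0.0208, 0.2 adjusted; rho = 0.83, exact p = 0.0583, 0.475 adjusted; r = 0.50 without daDREAM replicates 1 and 3). Per1 and Cry2 had the smallest p of the 36 pairs (r = 0.86, exact p = 0.0111, 0.2 adjusted; rho = 0.83, exact p = 0.0583, 0.475 adjusted). Their r was 0.20 once daDREAM replicate 1 and wild-type replicate 3 were left out, and 0.79 with the genotype means removed. After renewed quantile normalization r was -0.07 for Clock and Per2, 0.91 for Npas2 and Per2, and 0.68 for Per1 and Cry2.

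**Figure D3:**
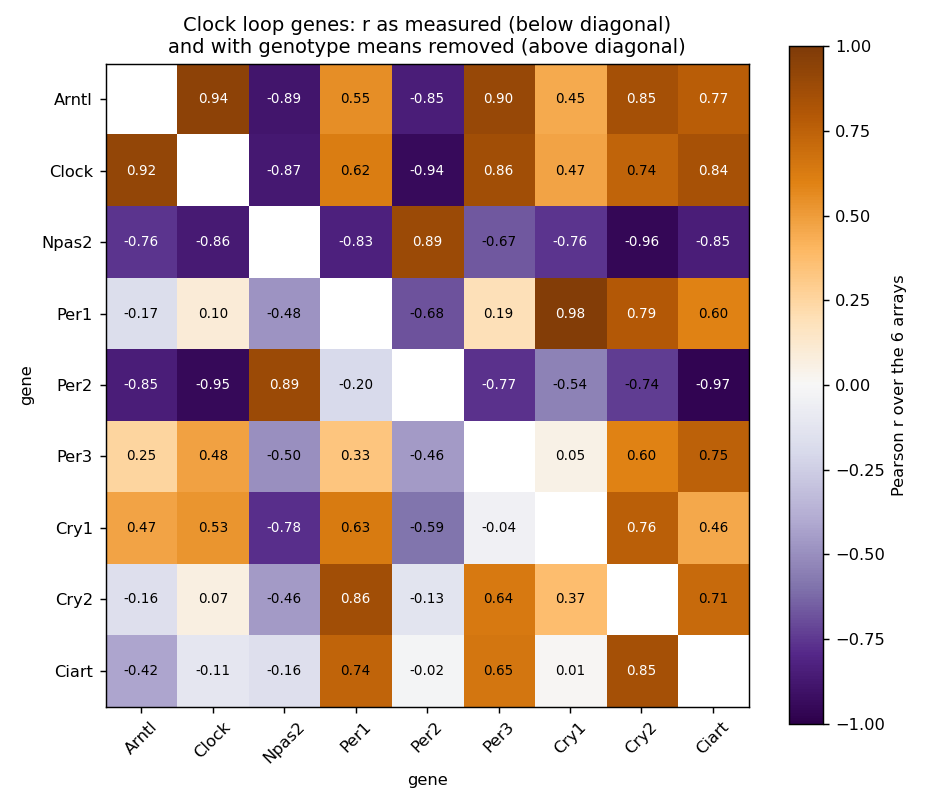
Pearson r over the 6 arrays between the 9 clock loop genes, brightest probe set of each, as measured below the diagonal and with the genotype means removed above it. Arntl and Ciart are at -0.42 as measured and 0.77 with the genotype means removed, while Clock and Per2 are at -0.95 and -0.94. After renewed quantile normalization, which is not drawn, r of Clock and Per2 was -0.07.

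Properties of the arrays ran with several members. Npas2, a dim probe set, followed the spread of the array: it was highest where the interquartile range was narrowest and lowest where it was widest, in exact rank order (r = -0.95, exact p = 0.00139, 0.0375 adjusted; rho = -1.0, exact p = 0.00278, 0.075 adjusted; -0.99 with the 2 most extreme arrays in spread left out). This was the single relation of the 27 that passed after adjustment, by Pearson and not by Spearman. It is that of 1421036_at, the brighter Npas2 probe set. The other, 1421037_at, also dim, ran the opposite way within each genotype. It was highest where the range was widest, at 4.53 in daDREAM replicate 1 and 4.75 in wild-type replicate 2. It was lowest where the range was narrowest, at 4.35 in daDREAM replicate 3 and 4.22 in wild-type replicate 3. Arntl ran against the hybridization controls (r = -0.91, exact p = 0.0139, 0.175 adjusted; rho = -0.75, exact p = 0.106, 0.356 adjusted; -0.47 with the 2 most extreme arrays in controls left out). Clock (r = -0.85), Npas2 (r = 0.81) and Per2 (r = 0.84) also followed these controls. Their exact permutation p were 0.0306, 0.0417 and 0.0444, each 0.2 adjusted. With the 2 most extreme arrays in controls left out, r was 0.98, 0.19 and -0.48. With the interquartile range r was 0.86 for Cry1 and -0.81 for Per2 (exact permutation p = 0.0694 and 0.0556, 0.234 and 0.214 adjusted). The 12 bright members as a group deviated from their own means by 0.26, -0.05 and -0.22 in daDREAM replicates 1, 2 and 3, against 0.05, 0.10 and -0.14 in wild-type replicates 1, 2 and 3. From high to low, that is the same order of arrays as the order of the interquartile ranges. The part of these array properties in the genotype differences and in the r between pairs of members was not tested.

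**Figure D4:**
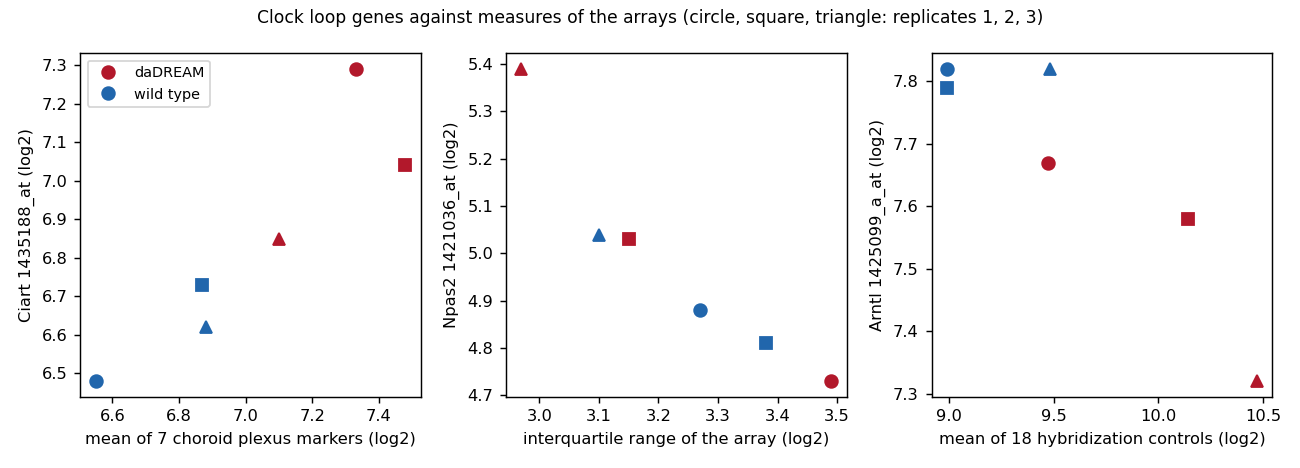
Ciart against the mean of 7 choroid plexus markers, Npas2 against the interquartile range of the array, and Arntl against the mean of 18 hybridization controls, all in log2 units, 1 point per array (n = 6). Ciart is higher where the choroid plexus mean is higher (r = 0.90), and Npas2 1421036_at is lower where the spread is wider (r = -0.95). Arntl is lowest in daDREAM replicate 3, where the controls are highest at 10.47.

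Scaling the arrays to a common spread moved the counts. After renewed quantile normalization of the deposited values, 5 of 21 members had a limma unadjusted p under 0.05, against 3.02% of all probe sets, and 0 passed after adjustment. Those 5 were Arntl 1425099_a_at with a difference of -0.25 and Clock 1439314_at with -0.36 among the activators, and Per1 with 0.34, Cry2 with 0.24 and Ciart with 0.46 among the repressors. The same 5 probe sets were those whose genotypes did not overlap in that setting, against 8.29% of all. Leaving out daDREAM replicate 1 also gave 5 of 21 at an unadjusted p under 0.05, but 16.1% of all probe sets then lay there.

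**Figure D5:**
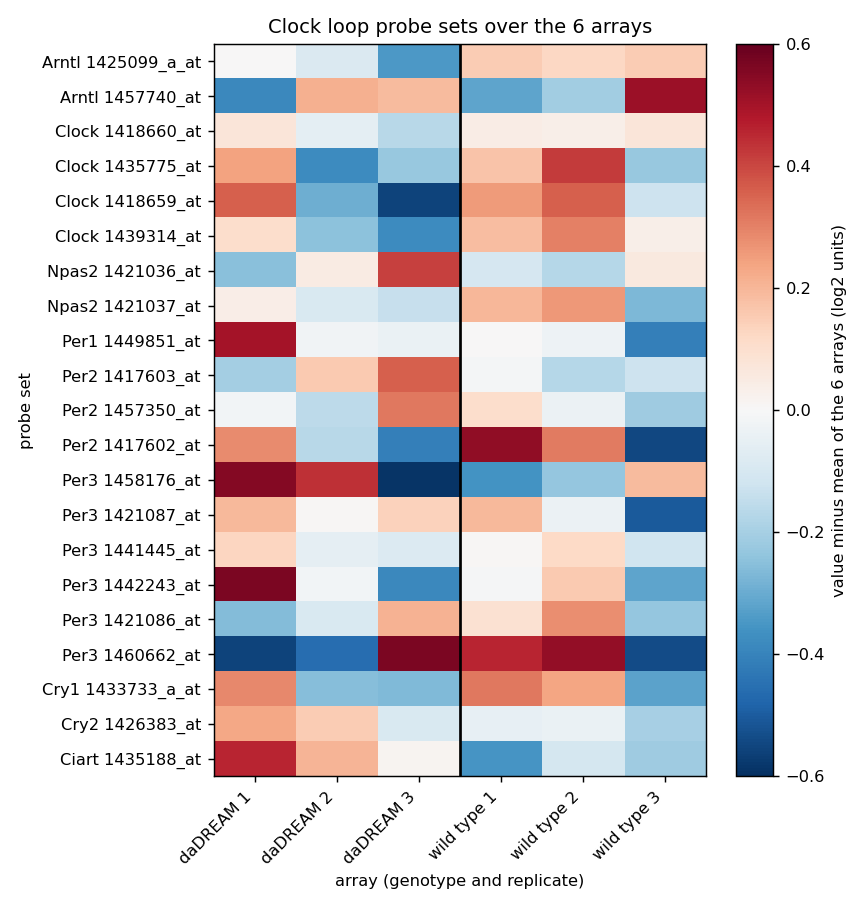
Each of the 21 clock loop probe sets (rows) on each array (columns, daDREAM left of the line, wild type right), as the log2 value minus the mean of the 6 arrays. Arntl 1425099_a_at is above its mean in wild type, near it in daDREAM 1 and below it in daDREAM 2 and 3. Ciart 1435188_at is below its mean in wild type, near it in daDREAM 3 and above it in daDREAM 1 and 2. Cry1 is high in daDREAM 1 and wild type 1 and 2, and Per3 1460662_at takes 2 levels that cross the genotypes.

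The wider clock was read from a list of 23 further genes, of which 21 were measured. None passed the adjusted limma test and 0 of the 21 brightest probe sets had an unadjusted p under 0.05. Over all 62 probe sets of the list 0 were called and 2 had an unadjusted p under 0.05, against 1.81% of all probe sets on the array. Of the 21 genes 11 had positive and 10 negative differences, with a median of 0.03, against a median of 0.01 over all probe sets. Among the genes driven through E-boxes, Tef, a PAR-bZIP factor that binds D-boxes, stood at 10.42, 10.36 and 10.23 in daDREAM, against 10.09 in each wild-type array. Its groups did not overlap and differed by 0.25 (interval -0.01 to 0.51, limma unadjusted p = 0.0596). Of the 3 probe sets of Tef 2 had positive differences. Dbp, a relative of Tef and one of the most rhythmic transcripts of mouse tissues, stood at 9.86, 9.29 and 8.82 in daDREAM, against 9.18, 9.24 and 9.01 in wild type. The daDREAM arrays of Dbp spanned the wild-type range on both sides, and the difference was 0.18 (interval -0.37 to 0.73).

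Hlf, the remaining PAR-bZIP gene, differed by -0.04 and Nfil3, which encodes the repressor at D-boxes, by -0.12. Nr1d1 and Nr1d2, which encode the REV-ERB repressors of Arntl, differed by 0.09 (interval -0.26 to 0.45) and -0.10 (interval -0.49 to 0.29). Bhlhe40 and Bhlhe41, the DEC repressors that compete at E-boxes, differed by 0.11 and 0.26, the second at a dim level. Csnk1e, a kinase that marks PER proteins for degradation, differed by 0.12. The groups also did not overlap for Gsk3b, a kinase that acts on several clock proteins, at 9.62, 9.71 and 9.59 in daDREAM, against 9.51, 9.44 and 9.38 in wild type, named after its values were seen. Its difference was 0.20 at the brightest probe set, while 5 of its 6 probe sets had negative differences. Tef and Gsk3b were the 2 of the 21 brightest probe sets whose groups did not overlap, against 6.01% of all probe sets.

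The genes whose pattern over the 6 arrays was most like that of a member were found among the genes with a mean of at least 6 and an SD of at least 0.2. For Arntl these were Mthfd1, Ide, Chic2 and Yod1, with Pearson r of 0.992 to 0.969 over the 6 arrays, and none of them is a clock gene of the lists used here. For Per2 they were Mta3, Atf4, Txn2 and Dctpp1, with r of 0.995 to 0.987. For Ciart they were Gng7, Barhl2, Sbsn and Ssh1, with r of 0.965 to 0.948. An r of at least 0.95 was reached by 13 of 3828 genes for Arntl, 27 of 3828 for Per2 and 3 of 3827 for Ciart, and with 6 arrays such values are a description.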

How the data were processed

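Total RNA from frozen cerebellum of 3 daDREAM and 3 wild-type mice was labelled with biotin and hybridised, 1 array per mouse sample, per the labels' protocols. The deposited values are log2 expression, with 1 value per probe set on each array, made by the authors with RMA in the affy package per the submitters' processing notes, with versions not given in the sources used here. RMA corrects background, equalises the arrays' probe distributions and summarises probes, which can hide a change shared by most genes. The values ran from 2.46 to 13.8. Of 45101 probe sets the 64 controls were left out, 45037 were tested, and 34945 have 1 gene symbol. Genotype and replicate number came from the sample titles.

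Differences were fitted over all 45037 probe sets by limma (version 3.58.1, R 4.3.3; lmFit, then eBayes, 2-sided, Benjamini-Hochberg, threshold 0.05). The procedure was run on simulated data with planted changes larger than the difference of any member, so that run does not cover differences of the size seen here. Single values also had a 2-sided exact permutation test, whose smallest p here is 0.1. Correlations over the 6 arrays used all 720 permutations, with adjustment over 36 pairs of genes or 27 relations to array measures, in Python 3.11.15 with numpy 2.4.6. Promoter windows and names came from RefSeq on GRCm38.p6. Values are given per array for the brightest probe set of each gene and for others, and correlations for Arntl with each member and the 3 highest and 3 lowest pairs. For likeness, 4 genes each were taken for Arntl, Per2 and Ciart.

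The members and lists were chosen with earlier results of these data known. Replicate numbers showed no clear pairing of the arrays: deviations of same-numbered arrays correlated at 0.119, -0.281 and 0.323 for numbers 1, 2 and 3. Such values cannot show that a pairing is absent. Alternatives were a replicate block, renewed quantile normalization, median centring, a mean of at least 6, a trended and robust prior, each array left out, gene means of probe sets and genotype means removed.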

Additional observations from a re-analysis of the deposited data

How the results depend on the processing

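In every alternative 0 probe sets passed the adjusted test, of the clock loop, of the other clock genes and of the whole array. At a limma unadjusted p under 0.05 the whole array had 817 of 45037 probe sets, and 1361 of 45037 after renewed quantile normalization. The count was 377 of the 17340 at a mean of 6 or more, and 337 of 18193 genes with probe sets averaged by gene. These last counts are of smaller totals. Without 1 array the count over all 45037 ran from 324 to 7254, the highest without daDREAM replicate 1. Clock loop probe sets at that level numbered 1, against 5 after renewed quantile normalization, 2 with the replicate block, and 0 to 5 without 1 array. The 2 non-overlapping members became 5 after renewed quantile normalization, and 2 to 6 of 21 without 1 array, when 9.91% to 32.7% of all probe sets did not overlap (6 of 21 and 32.7% without daDREAM replicate 1). For the other clock genes 2 of 62 probe sets became 1 among the fewer at a mean of 6 or more. The count was 7 after renewed quantile normalization, and 1 to 11 without 1 array. The replicate numbers showed no clear pairing of the arrays. With the replicate block no adjusted call changed, and 1093 probe sets of the array had a limma unadjusted p under 0.05.

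Of the 21 differences 14 kept their sign whenever 1 array was left out, though Clock 1418660_at (-0.16 to -0.04), Npas2 1421037_at (-0.29 to -0.03) and Per3 1460662_at (-0.65 to -0.09) were among those that moved by over 1.5 times. Those that changed sign were Arntl 1457740_at (-0.15 to 0.27), Npas2 1421036_at (-0.03 to 0.30), Per2 1457350_at (-0.04 to 0.20) and 1417602_at (-0.52 to 0.02), and Per3 1441445_at (-0.07 to 0.06), 1442243_at (-0.14 to 0.33) and 1421086_at (-0.23 to 0.02). Arntl 1457740_at was -0.02 after median centring and -0.01 after renewed quantile normalization, and Per3 1441445_at was 0.01 after renewed quantile normalization. The r of Arntl changed sign with Clock (-0.32), Per3 (-0.90) and Cry1 (-0.69) under gene means of probe sets, with Cry1 (-0.01) after renewed quantile normalization, with Per1 (0.07) and Cry2 (0.14) after median centring, and with Per3 (-0.38) when read by 1421087_at. With genotype means removed it changed with Per1 (0.55), Cry2 (0.85) and Ciart (0.77). That of Clock changed with Npas2 (0.16) after renewed quantile normalization and with Per2 (0.24) under gene means. The cause was not tested. Dim probe sets and 3 arrays a genotype limit the precision.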
